A study of Rattus norvegicus with 54 samples.

Results

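The 27 genes described here make cholesterol or control its synthesis through the sterol regulatory element-binding proteins (SREBPs). They were chosen by name, as protein-coding entries of the deposited count table, and all 27 were found among its 46505 genes. Of these, 21 encode enzymes of the route from acetyl-CoA units to cholesterol and its isoprenoid branch, 5 belong to SREBP control (Srebf1, Srebf2, Scap, Insig1 and Insig2) and 1, Stard4, carries sterols between membranes. All 27 passed the filter on low counts in every fit, with 310 or more reads in every library.

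The tissue was the nucleus accumbens, a reward-related part of the ventral striatum, of male and female Long Evans rats, sequenced as bulk RNA in 54 libraries. The controls (FCL_VEH) had the free-choice liquid diet condition before birth and water in adolescence. They were sampled at postnatal day 42 (P42, 9 males and 7 females) or P90 (6 males and 8 females). At P42, 24 h after the last adolescent treatment, the exposed group had ethanol before birth and water later (PAE_VEH, 9 males and 4 females). At P90 the exposed group had ethanol before birth and alcohol in adolescence (PAE_AAE, 6 males and 5 females), so the effects of both exposures cannot be told apart. Each comparison is between separate groups of libraries, and in bulk tissue fewer cells of a type and less RNA per cell cannot be told apart.

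In the brain, cholesterol is made locally because lipoprotein cholesterol hardly crosses the blood-brain barrier, and oligodendrocytes use large amounts of it while they build myelin. When membrane sterol is low, SCAP escorts the SREBPs from the endoplasmic reticulum to the Golgi, where they are cleaved into active transcription factors; when sterol is high, the INSIG proteins hold SCAP back. SREBP-2, from Srebf2, acts mainly on the cholesterol genes, whereas the SREBP-1 forms, from Srebf1, act more on fatty acid genes.

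Total counts ran from 59.1 to 103.8 M reads per library. The striatal identity of the tissue was seen in its markers, with Drd1 between 115.3 and 472.6 CPM (read counts scaled to a library of 1 M) and Drd2 between 65.0 and 264 CPM over the libraries. In 3 libraries the Y-linked gene Kdm5d went against the sex in the title: P42 control male 8, P42 control female 5 and P42 PAE_VEH male 5. A further library, P90 control male 6, held both Xist (53.3 CPM) and Kdm5d (28.6 CPM), where the other males of that group held Xist between 0.376 and 9.015 CPM. It was also 1 of 5 libraries whose profile stood apart from the rest. All libraries stayed in the values given first, and values without these libraries stand beside the age, sex and ethanol results.

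Promoter sequence of the members is shown for the genes the age comparison turns on and for both SREBP genes. The RefSeq table on GRCr8 held 24 promoters for 23 members and none for Fdft1, Pmvk, Sqle or Stard4. Each sequence is the 200 bases before an annotated transcript start, read 5′ to 3′ on the gene's strand. Capitals mark CCAAT (a box bound by NF-Y), GGGCGG (a GC box bound by Sp1) and TCACNCCA (a form of the sterol regulatory element), each on either strand.
Hmgcs1 chr2:53382104-53382303 plus strand: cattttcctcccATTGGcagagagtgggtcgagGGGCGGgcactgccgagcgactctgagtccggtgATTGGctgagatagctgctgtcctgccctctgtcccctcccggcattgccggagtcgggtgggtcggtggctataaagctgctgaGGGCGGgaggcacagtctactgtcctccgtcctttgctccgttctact
Cyp51 chr4:30991493-30991692 plus strand: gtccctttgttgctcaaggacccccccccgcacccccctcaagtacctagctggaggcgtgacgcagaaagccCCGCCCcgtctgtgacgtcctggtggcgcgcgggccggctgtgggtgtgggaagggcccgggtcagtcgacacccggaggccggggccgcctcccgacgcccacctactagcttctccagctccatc
Lss chr20:12118231-12118430 minus strand: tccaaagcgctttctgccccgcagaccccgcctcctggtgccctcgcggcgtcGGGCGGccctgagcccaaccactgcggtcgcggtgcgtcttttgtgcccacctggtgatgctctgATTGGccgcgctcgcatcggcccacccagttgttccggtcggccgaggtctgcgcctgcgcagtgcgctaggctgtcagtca
Dhcr7 chr1:208444234-208444433 plus strand: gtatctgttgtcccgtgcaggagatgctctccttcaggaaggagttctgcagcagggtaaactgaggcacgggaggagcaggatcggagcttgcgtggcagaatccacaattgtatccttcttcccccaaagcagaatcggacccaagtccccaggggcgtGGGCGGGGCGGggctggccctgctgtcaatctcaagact
Srebf2 chr7:115543107-115543306 plus strand: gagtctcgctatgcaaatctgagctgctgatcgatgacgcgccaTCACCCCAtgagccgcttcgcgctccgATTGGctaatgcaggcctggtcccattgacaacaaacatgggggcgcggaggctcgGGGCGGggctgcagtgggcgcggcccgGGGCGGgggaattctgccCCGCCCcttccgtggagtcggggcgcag
Srebf1 start 1 chr10:45529165-45529364 minus strand: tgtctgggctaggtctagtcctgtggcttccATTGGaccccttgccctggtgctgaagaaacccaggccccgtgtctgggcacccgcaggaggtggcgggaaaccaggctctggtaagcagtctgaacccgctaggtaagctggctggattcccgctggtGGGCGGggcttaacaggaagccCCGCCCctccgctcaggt
Srebf1 start 2 chr10:45519011-45519210 minus strand: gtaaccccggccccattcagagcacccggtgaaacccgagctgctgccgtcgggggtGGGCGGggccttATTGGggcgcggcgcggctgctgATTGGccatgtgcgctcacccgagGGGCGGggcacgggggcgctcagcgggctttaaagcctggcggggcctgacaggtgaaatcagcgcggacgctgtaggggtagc

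NF-Y and Sp1 are known partners of the SREBPs at sterol-regulated promoters. In the 250 bases before the start, CCAAT occurred in 18 of 23 members and in 34.0% of all 33469 promoters of the table. GGGCGG also occurred in 18 of 23 members, against 30.5% of all promoters and 47.9% of those of protein-coding genes tested here. The E box CACGTG occurred in 3 of 23 members and in 5.59% of all. For the sterol regulatory element, the letters TCACNCCAC were searched first and matched 0 of 23 members, against 0.974% of all promoters. After that result 10 other forms were searched, making 11 in all, and they matched between 1 and 8 members. The form marked in capitals was picked from these afterwards. It occurred in Srebf2, 156 bases before the start, and in Msmo1, 190 bases before it, and in 3.24% of all promoters. TCACCC occurred in 5 members (12.7% of all promoters), CACNCCAC in 3 (4.89%) and ATCAC in 8 (29.5%), so the count depends on the letters chosen. Of the 4 genes that fell in both sexes and have an entry (Hmgcs1, Lss, Cyp51 and Dhcr7), all hold GGGCGG, and the pair in Dhcr7 overlap, at 39 and 34 bases before the start. CCAAT lies 188 and 133 bases before the start in Hmgcs1 and 82 bases before it in Lss. A missing match says only that these letters are not in this window. Srebf1 has a pair of starts in the table; its counts are per gene and do not separate transcripts from either start.

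Per kilobase of gene length, the sterol enzymes Msmo1 and Cyp51 were the most abundant members, at a mean level of 59.6 ± 10.9 and 52.1 ± 13.1 CPM per kb (SD, n = 54). Msmo1 removes methyl groups from the sterol, and Cyp51 demethylates lanosterol. Fdps, which makes farnesyl diphosphate, followed at 51.4 ± 8.05 CPM per kb and Hmgcs1, which makes HMG-CoA, at 39.9 ± 11.1. The escort protein gene Scap, at 39.7 ± 3.26 CPM per kb, and Srebf2, at 33.5 ± 3.14, had the highest levels of the control genes. Srebf1 stood at 24.2 ± 4.31 CPM per kb, Insig1 at 16.3 ± 3.60 and Insig2 at 9.83 ± 0.965. The least abundant were Hsd17b7, a sterol ketoreductase, at 2.84 ± 0.559 and Ggps1, which makes geranylgeranyl diphosphate, at 2.39 ± 0.292 CPM per kb. Each member's range overlapped that of its neighbours in this order. The deposited gene length of Ggps1, 17588 bases, is the longest among the members, which lowers its value on this scale.

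**Figure D1:**
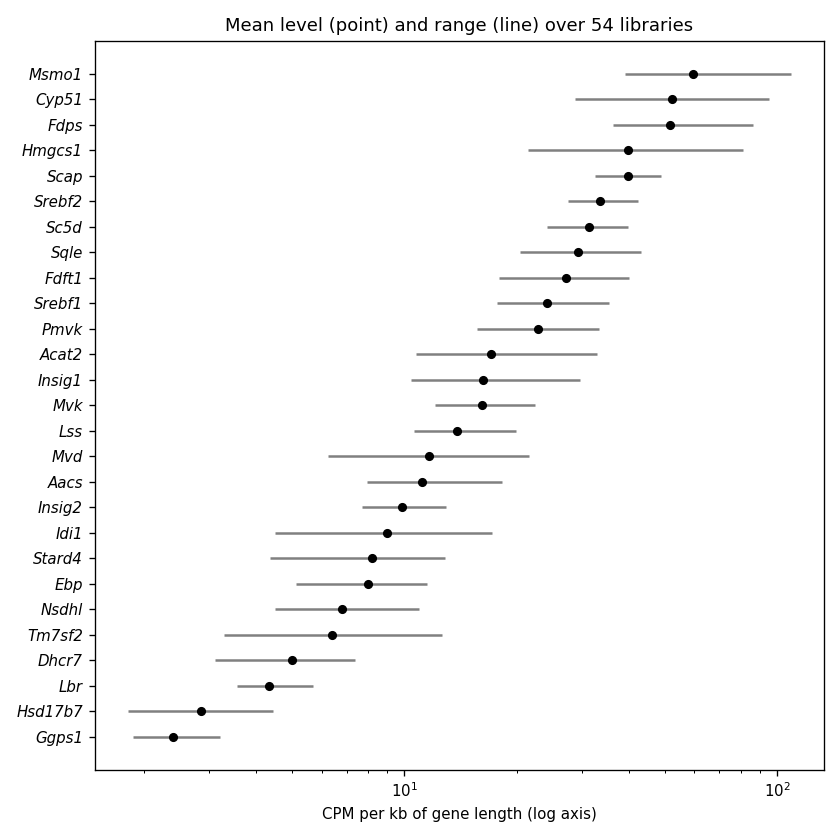
Level of each of the 27 genes in CPM per kb of deposited gene length (log axis), with the mean as a point and the lowest to highest of 54 libraries as a line. The means run from 59.6 for Msmo1 to 2.39 for Ggps1.

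In control rats 20 of the 21 cholesterol enzymes had a lower level at P90 than at P42 in each sex. Of the 27 members, 24 were lower in males and 23 in females, and the enzymes that passed the test all fell. In males 6 fell (Aacs, Hmgcs1, Sqle, Lss, Cyp51 and Dhcr7) and 1, Srebf1, rose. In females 5 fell (Hmgcs1, Sqle, Lss, Cyp51 and Dhcr7) and none rose. The median log2 fold change of the members was -0.20 in males and -0.18 in females, where the median of all genes tested was -0.0013 and -0.0018. Over all 24065 genes, 2.53% passed in males (0.603% lower and 1.93% higher) and 0.42% in females (0.195% lower and 0.224% higher). The test was edgeR's quasi-likelihood F test with Benjamini-Hochberg adjustment over all genes and a threshold of 0.05.

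These counts rest in part on single libraries. In males, 4 of the 27 passed without P90 control male 6, all lower, where the share over all genes was 0.435%, and Sqle (adjusted p = 0.0513) and Srebf1 (adjusted p = 0.0578) were among those that did not. In females, 3 passed without P90 control female 3, without P42 control female 1 or without P42 control female 5 (0.25%, 0.321% and 0.296% of all genes), and Hmgcs1 did not pass in any of these fits (edgeR adjusted p between 0.052 and 0.0542). Without the 3 libraries whose Kdm5d went against the title, 5 members passed in males (4 fell and 1 rose; 1.35% of all genes) and 1, Sqle, fell in females (0.18% of all genes), while the members' medians were -0.18 and -0.165. The first rule tried for such libraries, the larger of Xist and Kdm5d, is kept as an alternative chosen after seeing the data. It took out P90 control male 6 as well and left 3 members that fell in males (0.285% of all genes passed) and 2 in females (0.194%).

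**Figure D2:**
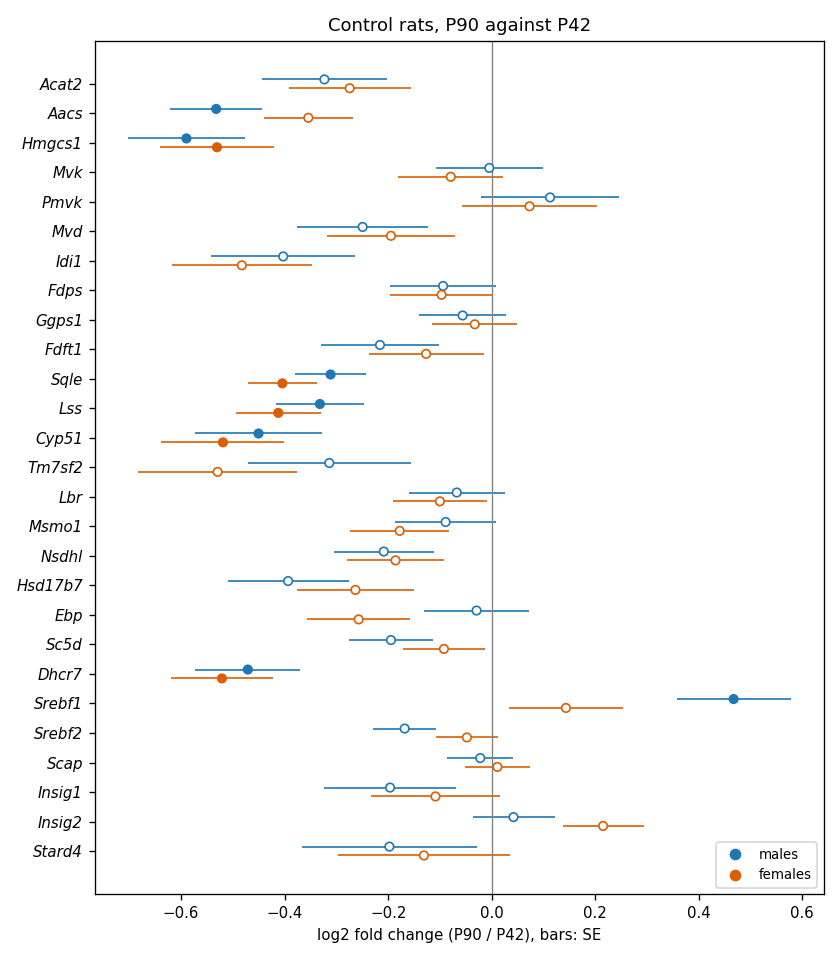
Log2 fold change of P90 over P42 in control males (blue) and females (orange) for each of the 27 genes in pathway order, with SE bars; filled points passed an adjusted p of 0.05. Most points lie left of 0 in both sexes, and Srebf1 is the filled point on the right, at 0.47 in males.

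The entry to the pathway joins acetyl units into HMG-CoA. Hmgcs1 encodes the synthase that makes HMG-CoA in the cytosol. In P42 control males it was measured between 290.4 and 359 CPM (median 335), and in P90 males between 184.0 and 257.9 (median 207.7). The male groups did not overlap. In females the values were 264.5 to 381 CPM (median 285) at P42 and 144.2 to 286.1 (median 210.8) at P90, and here the groups overlapped. Hmgcs1 fell by 0.59 ± 0.11 on the log2 scale (SE; edgeR adjusted p = 0.00558) in males and by 0.53 ± 0.11 (edgeR adjusted p = 0.0169) in females.

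Aacs, which activates the ketone body acetoacetate for lipid synthesis, lay between 41.0 and 52.5 CPM (median 47.3) in P42 males. In P90 males it lay between 27.7 and 36.25 CPM (median 32.4), again without overlap. It fell by 0.53 ± 0.09 in males (edgeR adjusted p = 0.0021) and passed in each of the 15 fits that left out 1 library. In females its log2 fold change was -0.35 ± 0.09 and did not pass (edgeR adjusted p = 0.0563). Non-overlapping groups occurred for 2 of the 27 members in males and for 1 in females, and for 0.636% and 0.249% of all genes tested. Acat2, the cytosolic acetyl-CoA acetyltransferase, had -0.32 ± 0.12 in males and -0.27 ± 0.12 in females, and neither passed.

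In the mevalonate steps that follow, none of the 6 genes passed in males or females. Mvk, the mevalonate kinase, had a log2 fold change of -0.0046 in males (95% interval -0.22 to 0.21) and -0.08 in females (-0.29 to 0.13). Pmvk, the next kinase, had 0.11 (-0.16 to 0.38) in males and 0.07 (-0.19 to 0.34) in females, the only enzyme above 0 in either sex. Fdps had -0.09 (-0.30 to 0.11) in males and -0.10 (-0.30 to 0.11) in females. Idi1, the isomerase between the kinases and Fdps, showed -0.40 ± 0.14 and -0.48 ± 0.13, and did not pass in either sex alone. Mvd, which decarboxylates mevalonate diphosphate, had -0.25 ± 0.13 and -0.19 ± 0.12, and Ggps1 had -0.06 ± 0.08 and -0.03 ± 0.08.

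Squalene epoxidase, Sqle, makes the first oxygenated sterol precursor, and Lss closes it into lanosterol. Sqle was measured at 58.27 to 74.99 CPM (median 66.6) in P42 males and 46.4 to 59.8 (median 52.7) in P90 males. In females it ran from 63.5 to 81.1 CPM (median 69.4) at P42 and from 47.8 to 57.5 (median 53.7) at P90. The female groups did not overlap, and the male groups overlapped narrowly. Sqle fell by 0.31 ± 0.07 in males (edgeR adjusted p = 0.0131) and by 0.40 ± 0.07 in females (edgeR adjusted p = 0.00316). In females it passed under each of the 10 other settings and in each of the 15 fits that left out 1 library.

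Lss ranged from 58.7 to 79.1 CPM (median 71.7) in P42 males and from 50.1 to 62.9 (median 56.5) in P90 males. In females its range was 55.8 to 90.8 CPM (median 70.5) at P42 and 48.5 to 64.2 (median 53.0) at P90. The groups overlapped in both sexes. Lss fell by 0.33 ± 0.08 in males (edgeR adjusted p = 0.0308) and by 0.41 ± 0.08 in females (edgeR adjusted p = 0.0125). In males it passed in 8 of the 15 fits that left out 1 library and under 4 of the 10 other settings, and in females in 15 of 15 and under 7 of 10. Fdft1, the squalene synthase, had -0.22 ± 0.11 and -0.13 ± 0.11, and neither passed.

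Of the 9 enzymes between lanosterol and cholesterol, each was lower at P90 in both sexes, and Cyp51 and Dhcr7 fell. Cyp51 had a median of 186.7 CPM and a mean of 185.2 ± 11.7 (SD, n = 9) in P42 males, with 205.4 the highest, and lay at 113.5 to 179.7 (median 123.2) in P90 males. In females it was at 138 to 245 CPM (median 163) at P42 and 86.5 to 157.5 (median 125.7) at P90. Both pairs of groups overlapped. Cyp51 fell by 0.45 ± 0.12 in males (edgeR adjusted p = 0.0428) and by 0.52 ± 0.12 in females (edgeR adjusted p = 0.0388). Its male call held in 2 of the 15 fits that left out 1 library and its female call in 7 of 15, with a log2 fold change between -0.55 and -0.38 and between -0.57 and -0.43.

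Dhcr7 encodes the reductase that makes cholesterol from 7-dehydrocholesterol. It lay at 27.5 to 34.6 CPM (median 31.3) in P42 males and 16.8 to 27.7 (median 21.3) in P90 males. In females it lay at 25.5 to 37.9 CPM (median 29.1) at P42 and 17.5 to 26.08 (mean 21.1 ± 2.84, SD, n = 8) at P90. The highest P90 library of each sex reached just above the lowest P42 library. Dhcr7 fell by 0.47 ± 0.10 in males (edgeR adjusted p = 0.0112) and by 0.52 ± 0.10 in females (edgeR adjusted p = 0.00788). It did not pass in males without P90 control male 3 (adjusted p = 0.0506). At the other end, Lbr, a nuclear envelope protein with sterol reductase activity, had -0.07 ± 0.09 and -0.10 ± 0.09, and Msmo1 had -0.09 ± 0.10 and -0.18 ± 0.10. None of these passed.

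The other 5 enzymes of this stretch are reductases, isomerases, a desaturase and a dehydrogenase of the sterol ring, and none passed in a single sex. Tm7sf2 had -0.31 ± 0.16 in males and -0.53 ± 0.15 in females, and Hsd17b7 had -0.39 ± 0.12 and -0.26 ± 0.11. Nsdhl, a sterol dehydrogenase, had -0.21 ± 0.10 and -0.19 ± 0.09, and Sc5d, the desaturase, -0.19 ± 0.08 and -0.09 ± 0.08. Ebp, the sterol isomerase, had -0.03 ± 0.10 in males and -0.26 ± 0.10 in females.

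**Figure D3:**
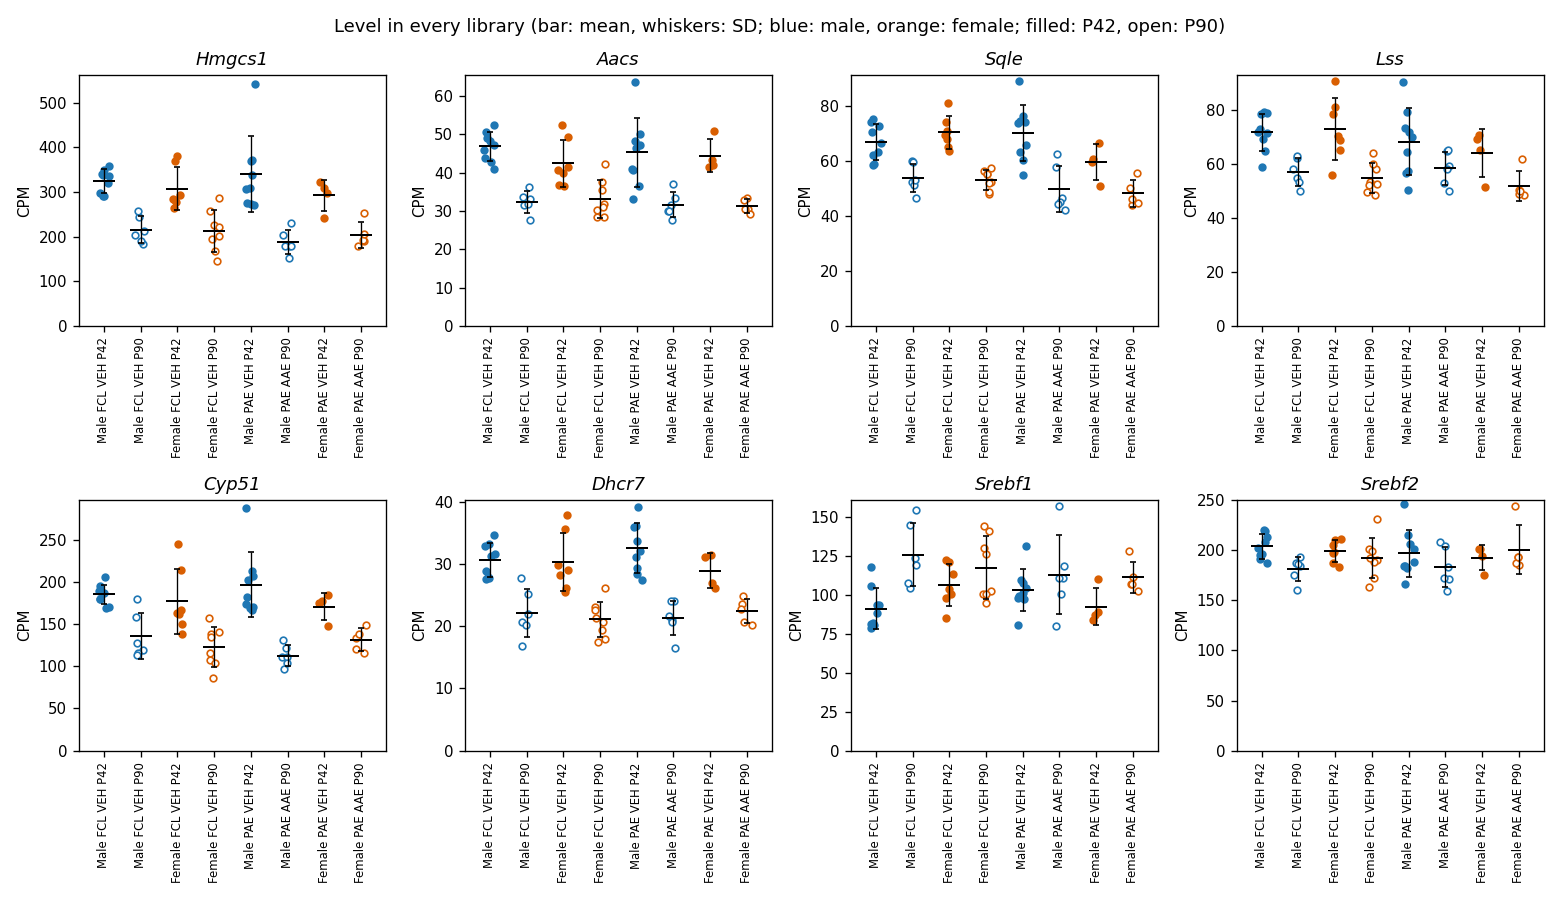
CPM in each library for 8 of the genes over the 8 groups, with the group mean and SD (blue males, orange females; filled P42, open P90). Hmgcs1, Aacs, Sqle, Lss, Cyp51 and Dhcr7 have lower means in the P90 groups, and Srebf1 has a higher mean at P90 in control males (125.7 against 91.1 CPM).

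Among the control genes, Srebf1 and Insig2 had a log2 fold change above 0 in both sexes, and only Srebf1 passed, in males. Srebf1 was measured at 78.8 to 117.9 CPM (median 88.2) in P42 males and at 104.5 to 154.7 (median 121) in P90 males. The groups overlapped, and all 6 P90 libraries lay above the P42 median. Srebf1 rose by 0.47 ± 0.11 on the log2 scale in males (edgeR adjusted p = 0.0211). It did not pass without P90 control male 4 (adjusted p = 0.0504) or male 6 (adjusted p = 0.0578), nor with voom (0.43, adjusted p = 0.0537) or under the larger-marker rule for sex labels (0.49, adjusted p = 0.0871). With 3 marker scores of tissue content as covariates, for myelinating oligodendrocytes, choroid plexus and cortical excitatory neurons, its log2 fold change was 0.26 and did not pass (adjusted p = 0.165). In females it ran from 84.85 to 122.4 CPM (mean 106.4 ± 13.6, SD, n = 7) at P42 and from 94.46 to 144.2 (median 114.1) at P90, with a log2 fold change of 0.14 ± 0.11 that did not pass. The difference of the age effect between the sexes was -0.32 ± 0.16 (edgeR adjusted p = 0.58).

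Srebf2 lay at 186.9 to 220.3 CPM (median 202.5) in P42 males and 160.5 to 193.4 (median 185) in P90 males. In females it lay at 183 to 212 CPM (median 198) and 163.5 to 230.9 (median 191). Its log2 fold change was -0.17 ± 0.06 in males (edgeR adjusted p = 0.138) and -0.05 ± 0.06 in females, and neither passed. Scap ran from 160.7 to 190.2 CPM (median 177) and 144.3 to 189.8 (median 178.8) in males, and from 141 to 191 (median 163) and 149 to 192 (median 159) in females. Its log2 fold changes, -0.02 (95% interval -0.15 to 0.11) and 0.01 (-0.12 to 0.14), were the closest to 0 among the control genes in both sexes.

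Insig1, itself a known SREBP target, was at 61.75 to 92.5 CPM (median 71.5) in P42 males and 48.5 to 78.95 (median 61.9) in P90 males. In females it was at 54.8 to 93.7 CPM (median 65.8) and 43.1 to 76.6 (median 67.9). Insig2 was at 35.3 to 51.7 CPM (median 43.8) and 41.8 to 45.6 (median 43.9) in males. In females it was at 34.2 to 43.7 CPM (median 41.3) and 35.7 to 57.6 (median 44.6). The groups of both genes overlapped, and no change passed: Insig1 had -0.20 ± 0.13 and -0.11 ± 0.12, Insig2 0.04 ± 0.08 and 0.22 ± 0.08. The female value of Insig2 was the highest log2 fold change of the 27 members in females. Stard4 had -0.20 ± 0.17 and -0.13 ± 0.17.

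Averaged over both sexes, 10 members fell and Srebf1 rose, where 7.18% of all genes passed (2.11% lower and 5.07% higher). The rise of Srebf1 over both sexes did not pass under the larger-marker rule (0.31, edgeR adjusted p = 0.0523). Besides the 6 genes named above, Idi1 (-0.44 ± 0.10, edgeR adjusted p = 0.00628), Tm7sf2 (-0.42 ± 0.11, edgeR adjusted p = 0.0188), Hsd17b7 (-0.33 ± 0.08, edgeR adjusted p = 0.014) and Acat2 (-0.30 ± 0.08, edgeR adjusted p = 0.0294) fell. Tm7sf2 is a sterol reductase. Aacs, Hmgcs1, Sqle, Lss, Cyp51, Dhcr7, Idi1, Tm7sf2 and Hsd17b7 passed in each of the 30 fits that left out 1 library. They also passed under each of the 10 other settings. The number of members passing stayed between 10 and 12. Under the other settings the share over all genes ran from 2.22% (larger-marker rule) to 21% (3 marker scores as covariates). With these scores the members' median was -0.09, against -0.16 without them. By role, 3 of 3 entry enzymes fell, 1 of 6 in the stretch from mevalonate to isoprenoids, 2 of 3 at squalene and lanosterol, and 4 of 9 from lanosterol to cholesterol. Acat2 did not pass in 5 of the 30 fits, those without P90 control female 3 or P90 control male 1, 2, 3 or 5 (adjusted p between 0.0523 and 0.0555). Without the 3 libraries whose Kdm5d went against the title, Acat2 did not pass either (-0.29, edgeR adjusted p = 0.0653).

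The difference of the age effect between the sexes passed for 0 members and 0% of all genes. Without adjustment, 1 member (Srebf1) and 8.5% of all genes had a p under 0.05 in edgeR. DESeq2 and voom called 0 members.

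Some markers of oligodendrocytes fell with age as well. Of 8 markers of newly formed oligodendrocytes, 6 were lower and 2 higher in males (list median -0.21, highest 0.48). All 8 were lower in females (list median -0.36). In males only Gpr17 passed, falling by 0.81 ± 0.14 (edgeR adjusted p = 0.0023). In females Gpr17 fell by 0.81 ± 0.13 (edgeR adjusted p = 0.00316) and Enpp6 by 1.11 ± 0.20 (edgeR adjusted p = 0.00704). The summed level of the 8 markers was 369 to 454 CPM (median 415) in P42 males and 275 to 400.5 (median 294) in P90 males. In females it was 320.0 to 559 CPM (median 360.2) and 251 to 390 (median 273). Of 12 myelin markers, 1 fell in females, Ugt8, and none passed in males, with list medians of -0.57 and -0.08. The myelin sum was 13760 to 20250 CPM in P42 males and 8465 to 32980 in P90 males, and 8767 to 32370 and 6943 to 19990 CPM in females. In males, the astrocyte markers Aldoc (0.53 ± 0.12) and S100b (0.61 ± 0.12) and the microglial markers C1qa (0.74 ± 0.20) and C1qb (0.72 ± 0.19) rose, and no marker of these lists passed in females. Of 6 oligodendrocyte precursor markers, none passed in males (4 lower, list median -0.12). In females 5 were lower (list median -0.09) and 1 fell (edgeR adjusted p = 0.0424). Over both sexes 1 fell (edgeR adjusted p = 0.00184). No marker of any oligodendrocyte list was at 0 in any of these groups. Choroid plexus markers, which show adjoining tissue, had list medians of 1.02 in males and -0.56 in females, with none past the threshold; their sum was 19.9 to 1829 CPM at P42 and 69.5 to 3796 CPM at P90 in males. Ependymal cilia markers had list medians of 0.52 in males (7 of 7 higher) and -0.80 in females (7 of 7 lower), and none passed. Their sum in females was 242.3 to 541 CPM (median 339.7) at P42 and 74 to 469 (median 150.8) at P90. Markers of cortical excitatory neurons had list medians of -0.18 in males and 1.06 in females (7 of 8 higher), and none passed. Their sum in females had a median of 510.3 CPM at P42 and 422.2 at P90, lower at P90 although the list median was above 0, and the highest P90 library reached 1561. With the 3 marker scores as covariates, 5 members fell in males, 9 fell and 1 rose in females, where 2.04% and 15.8% of all genes passed, and the member medians were -0.156 and -0.115. The part of newly formed oligodendrocytes and of ependymal cells in the result was not tested.

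Other genes of lipid metabolism were described from 3 lists. Of 20 SREBP-linked lipid genes, 5 fell and none rose in males, 2 fell in females, and over both sexes 5 fell and 1 rose. Over all genes, 0.603% fell and 1.93% rose in males, and 0.195% fell and 0.224% rose in females. Over both sexes 2.11% fell and 5.07% rose. Elovl6, a fatty acid elongase, fell by 0.52 ± 0.08 in males (edgeR adjusted p = 0.000795) and by 0.46 ± 0.08 in females (edgeR adjusted p = 0.00316). Acss2, which makes cytosolic acetyl-CoA, fell by 0.39 ± 0.10 and Fasn, the fatty acid synthase, by 0.27 ± 0.07 in males (both edgeR adjusted p = 0.0289). Lpin1, a phosphatidate phosphatase, rose by 0.13 ± 0.04 over both sexes (edgeR adjusted p = 0.0359).

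Of 21 genes of cholesterol uptake, efflux and turnover, 4 rose and none fell in males, none passed in females, and over both sexes 5 rose and 1 fell. Over all genes, 1.93% rose in males, and 5.07% rose and 2.11% fell over both sexes. Those that rose in males included Lcat, which esterifies cholesterol on lipoproteins, by 1.09 ± 0.26 (edgeR adjusted p = 0.0251). Npc2, which moves cholesterol out of lysosomes, rose by 0.64 ± 0.15 (edgeR adjusted p = 0.0184) and Nr1h2, the oxysterol receptor LXR beta, by 0.35 ± 0.08 (edgeR adjusted p = 0.0181). In females the smallest p was that of Ch25h, which makes 25-hydroxycholesterol, with 1.35 ± 0.35 (edgeR adjusted p = 0.0811). Of 11 other users of isoprenoids, none passed in either sex alone. Over both sexes 1 of 11 rose, where 5.07% of all genes did. It was Dhdds, which makes dolichol precursors, with 0.13 ± 0.04 (edgeR adjusted p = 0.0289). No gene of the 3 lists passed in a sex or ethanol comparison.

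Males and females did not differ in any member past the threshold. At P42, 0% of 24065 genes passed between the control sexes, and at P90 0.0499% (0.0166% higher in females and 0.0332% lower). The P42 groups include control male 8 and control female 5, whose Kdm5d went against the title. Without the 3 such libraries 13 genes (0.0545%) passed at P42, and still 0 members. At P90, without control male 6, 9 genes (0.0369%) and 0 members passed. The smallest p values at P42 belonged to Srebf1 (female minus male 0.22 ± 0.11), Aacs (-0.14 ± 0.08) and Scap (-0.10 ± 0.06), and at P90 to Mvk (-0.16 ± 0.11), Ggps1 (0.13 ± 0.09) and Ebp (-0.14 ± 0.10). Without adjustment, edgeR gave a p under 0.05 to 1 member at P42 (6.08% of all genes) and to 0 at P90 (5.85%). No member was called by DESeq2 or voom at either age.

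Between PAE_VEH and FCL_VEH at P42 no member passed the threshold. In males 21 members were higher and 6 lower in PAE_VEH than in FCL_VEH, with a median log2 fold change of 0.07 against 0.01 for all genes. This direction rests on 1 library: without PAE_VEH male 6 the median was -0.02, with 14 of 27 lower. With voom it was 0.0089, with 11 lower. With all libraries kept and the 3 marker scores as covariates it was 0.106, with 4 lower. In females 9 were higher and 18 lower, with a median of -0.06 against -0.03. In the fits that left out 1 library of either female group, the median lay between -0.0978 and -0.011. Without the 3 libraries whose Kdm5d went against the title, 5 members were lower in males (median 0.08) and 17 in females (median -0.03), and 0 passed in either sex. None of the 24741 genes passed in either sex (0%). Without adjustment, edgeR gave a p under 0.05 to 2 members in males and 4 in females, and to 8.96% and 11.3% of all genes. The counts were 3 members over both sexes (10.9% of all genes) and 2 for the difference between them (10.6%). No member was called by DESeq2 or voom. In females all 12 myelin markers were lower (list median -0.32), as were 8 of 8 choroid plexus markers (-1.02) and 7 of 7 ependymal markers (-0.72). All 10 medium spiny neuron markers were higher in these females (0.49), as were the 8 cortical excitatory neuron markers (0.70). No marker of these lists passed. With the 3 marker scores (myelin, choroid plexus and cortical excitatory neurons) as covariates, 17 members were lower in females, with a median of -0.025. No member passed in that fit. The part of medium spiny neurons and of ependymal cells was not tested.

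The 5 enzymes that fell with age in both sexes were measured in the exposed P42 groups as follows. In PAE_VEH males Hmgcs1 ran from 270.1 to 542 CPM (median 308), Cyp51 from 167 to 288 (median 182) and Sqle from 55.0 to 88.85 (median 73.8). Lss ran from 50.4 to 90.4 CPM (median 69.8) and Dhcr7 from 27.3 to 39.2 (median 32.1). In the 4 PAE_VEH females Hmgcs1 was measured at 242.1, 309.0, 297.4 and 321.4 CPM. Cyp51 was at 147.2, 177.4, 174.7 and 184.3 CPM in the same order, and Sqle at 50.82, 59.6, 66.56 and 60.63. Lss was at 65.33, 51.36, 70.59 and 69.41 CPM and Dhcr7 at 26.21, 26.87, 31.5 and 31.14. Each range overlapped that of the controls of the same sex.

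Of the control genes in PAE_VEH males, Srebf1 lay at 80.6 to 131.2 CPM (median 101.1), Srebf2 at 167 to 246 (median 188) and Scap at 162.5 to 213 (median 169.8). Insig1 lay at 58.85 to 122 CPM (median 75.55) and Insig2 at 36.8 to 52.0 (median 44.8). In PAE_VEH females Srebf1 lay at 83.75 to 110 CPM (median 87.8), Srebf2 at up to 201.0 (median 197.5) and Scap at 169.8 to 191 (median 183). Insig1 lay at 54.45 to 73.15 CPM (median 67.1) and Insig2 at 43.5 to 46.5 (median 45.3).

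The members with the smallest p in males were Srebf1 (0.18 ± 0.09, edgeR adjusted p = 0.547), Ebp (0.20 ± 0.10) and Msmo1 (0.16 ± 0.09). In females they were Stard4 (0.37 ± 0.14, edgeR adjusted p = 0.304), Sqle (-0.25 ± 0.10) and Insig2 (0.18 ± 0.08). Stard4 was at 54.51, 51.87, 59.51 and 57.24 CPM in PAE_VEH females and 37.1 to 50.8 (median 43.0) in control females. These groups did not overlap, 1 of 27 members against 3.23% of all genes tested, and the change did not pass. Averaged over the sexes the smallest p values were those of Stard4 (0.20 ± 0.09), Ggps1 (-0.12 ± 0.05) and Insig2 (0.11 ± 0.05). The difference between the sexes was largest by p for Srebf1 (-0.39 ± 0.145, edgeR adjusted p = 0.355), Sqle (-0.32 ± 0.13) and Stard4 (0.35 ± 0.18), and none passed.

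At P90, after prenatal ethanol and adolescent alcohol, no member passed either. In males 22 of the 27 were lower in PAE_AAE than in FCL_VEH, with a median log2 fold change of -0.11 against 0.01 for all genes. In the same males all 12 myelin markers (list median -0.47) and all 8 microglial markers (-0.44) were lower, and none passed. The myelin sum was 8465 to 32980 CPM (median 13100) in control males and 7421 to 13870 (median 11660) in PAE_AAE males. The microglial sum was 197.4 to 392.6 CPM (median 317.7) and 142.9 to 263.7 (median 240.9), and no marker was at 0. All 8 choroid plexus markers (-0.77) and all 8 cortical excitatory neuron markers (-0.62) were lower as well. With the 3 marker scores as covariates, 12 of the 27 members were lower, with a median of 0.0066. Without P90 control male 6, 20 were lower, with a median of -0.08. The part of microglia was not tested. In females 15 were lower, with a median of -0.06 against -0.02. Without P90 control female 2 the female median was 0.01, with 13 lower. None of the 24018 genes passed in either sex (0%), and 0.00416% passed over both. Without adjustment, edgeR gave a p under 0.05 to 2 members in males and 0 in females, and to 8.74% and 4.23% of all genes. The counts were 2 members over both sexes (3.26% of all genes) and 1 for the difference between them (10.6%). No member was called by DESeq2 or voom. Both ethanol comparisons share their control libraries with the age comparison.

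In PAE_AAE males Hmgcs1 lay at 152.7 to 231 CPM (median 178.9), Cyp51 at 97.4 to 130.7 (median 111.3) and Sqle at 42.1 to 62.3 (median 45.8). Lss lay at 50.1 to 65.1 CPM (median 58.7) and Dhcr7 at 16.5 to 24.1 (median 21.3). In the 5 PAE_AAE females Hmgcs1 was measured at 191.0, 192.1, 253.3, 179.1 and 205.7 CPM. Cyp51 was at 133.7, 120.3, 149.0, 116.2 and 138.4 CPM in the same order, and Sqle at 44.05, 50.21, 55.47, 46.18 and 44.55. Lss was at 48.5, 50.33, 61.73, 48.92 and 49.97 CPM and Dhcr7 at 23.58, 20.73, 24.81, 20.21 and 22.73. The third library of this group was the highest for all 5 genes. Each range overlapped that of the P90 controls of the same sex.

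Of the control genes in PAE_AAE males, Srebf1 lay at 80.1 to 157 CPM (median 110.8), Srebf2 at 159.7 to 208 (median 178) and Scap at 144.3 to 179.8 (median 169.4). Insig1 lay at 42.8 to 76.5 CPM (median 55.7) and Insig2 at 39.35 to 46.4 (median 42.8). In PAE_AAE females Srebf1 lay at 102.6 to 128.4 CPM (median 106.7), Srebf2 at 186 to 244 (median 193) and Scap at 169.3 to 194.2 (median 176). Insig1 lay at 44.5 to 72.4 CPM (median 51.3) and Insig2 at 42.5 to 49.3 (median 47.3).

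The smallest p values in males belonged to Msmo1 (-0.30 ± 0.12, edgeR adjusted p = 0.552), Cyp51 (-0.27 ± 0.13) and Lbr (0.19 ± 0.10). For Cyp51 the 95% interval ran from -0.53 to -0.0038. In females they belonged to Ggps1 (-0.20 ± 0.10, edgeR adjusted p = 0.9998), Scap (0.12 ± 0.07) and Insig1 (-0.25 ± 0.16). Over both sexes they belonged to Msmo1 (-0.19 ± 0.08), Insig1 (-0.23 ± 0.11) and Sqle (-0.13 ± 0.06). The difference between the sexes was largest by p for Ggps1 (-0.37 ± 0.15, edgeR adjusted p = 0.423), Cyp51 (0.36 ± 0.18) and Lbr (-0.28 ± 0.15), and none passed.

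**Figure D4:**
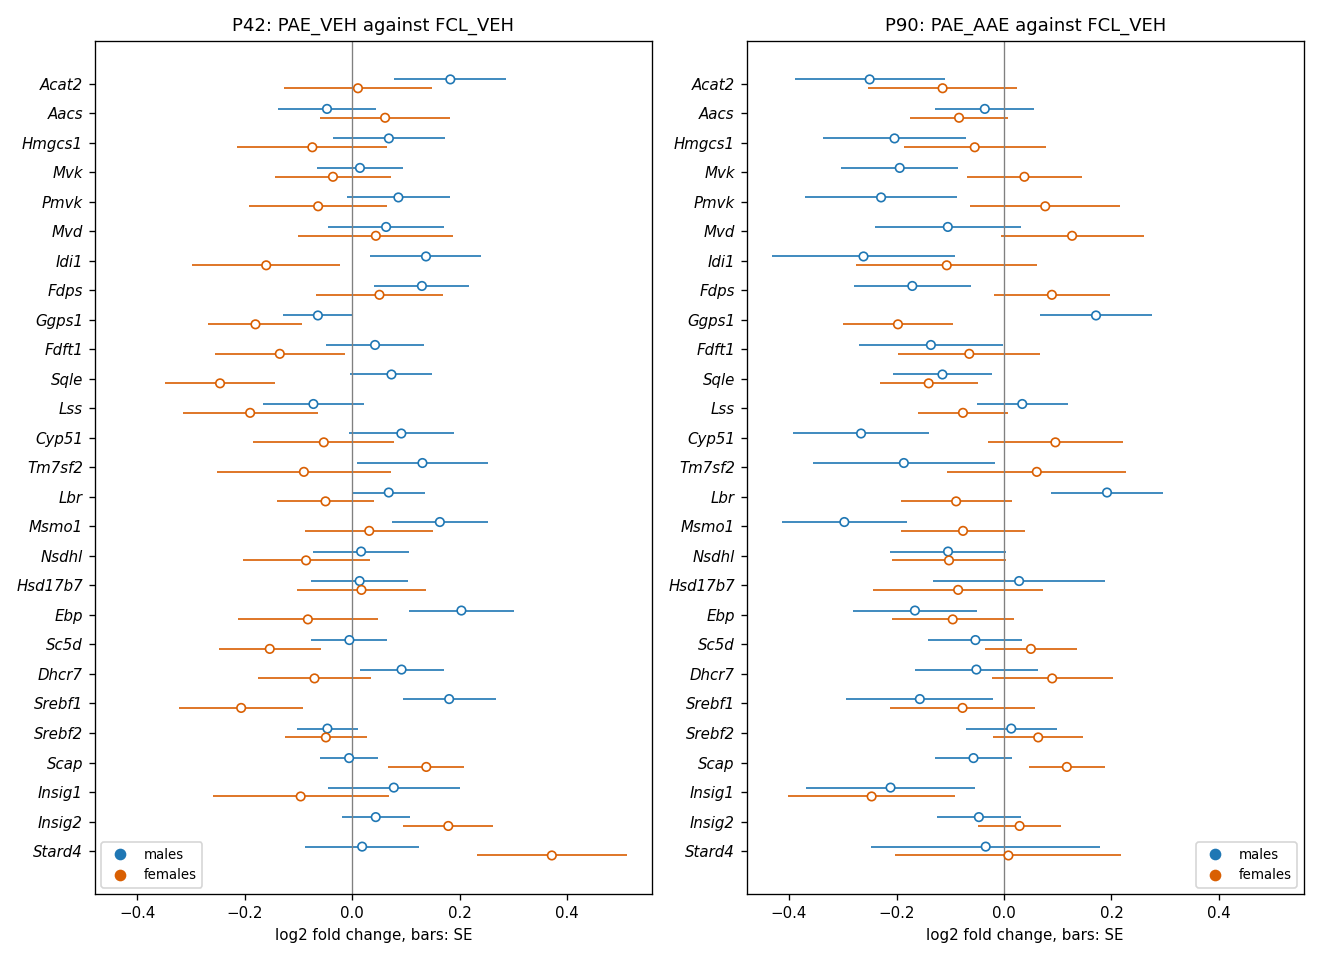
Log2 fold change with SE bars for each of the 27 genes at P42 (left, PAE_VEH against FCL_VEH) and P90 (right, PAE_AAE against FCL_VEH), males in blue and females in orange. All points are open, since no gene passed an adjusted p of 0.05; Stard4 in P42 females has the highest value, at 0.37.

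Within the groups, most members varied together from library to library. After each group's mean was taken off the log2 CPM, the Pearson r of a member with the mean of the others, over 54 libraries, was highest for Fdps (0.93), Hmgcs1 (0.929), Cyp51 (0.926) and Insig1 (0.911). The median r over the 351 pairs was 0.448, and 69 pairs were below 0. The closest pair was Hmgcs1 and Cyp51 at 0.931. Srebf2 had 0.693 with the others, Scap 0.385 and Insig2 0.359. Lbr (-0.22), Ggps1 (-0.297) and Srebf1 (-0.345) were the members below 0. For Srebf1, rho was -0.31, and r was -0.402 without the 2 libraries farthest from the median. It was -0.27 over the 49 libraries whose profile did not stand apart, -0.278 at P42 and -0.411 at P90. These correlations are descriptions; the values of a pair come from the same library, and depth and tissue content differ between libraries.

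Among genes that are not members, those with the pattern most like the members' mean were ranked among 14176 genes with a mean of at least 1 CPM. They included Shisa4 (r = 0.888, rho = 0.897), Osbpl1a (0.887 and 0.865), Tmem163 (0.882 and 0.824), Acss2 (0.88 and 0.831) and B3gat3 (0.873 and 0.853). Stmn1, Peds1, Septin7 and Pcbp4 followed, with r between 0.859 and 0.872. Tmem163 is also among the newly formed oligodendrocyte markers used here, and Acss2 is on the SREBP-linked list.

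Against marker scores, the members' mean went with that of newly formed oligodendrocytes at r = 0.765 (rho = 0.698, 54 libraries) and with that of myelinating oligodendrocytes at 0.615 (rho = 0.678). Within ages the first was 0.837 over 29 libraries at P42 and 0.687 over 25 at P90. It was 0.717 without the 2 libraries farthest from the median, and 0.691 over the 49 libraries that did not stand apart. Microglial markers gave 0.636, astrocyte markers 0.502, cortical excitatory neuron markers 0.461, medium spiny neuron markers -0.164 and ependymal markers -0.63. Oligodendrocyte precursor markers gave 0.388. Within a group, libraries with more newly formed or myelinating oligodendrocyte marker RNA tended to hold more RNA of the members. The same held for libraries with more microglial marker RNA and for those with less ependymal marker RNA. The part of any of these cell types was not tested.

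**Figure D5:**
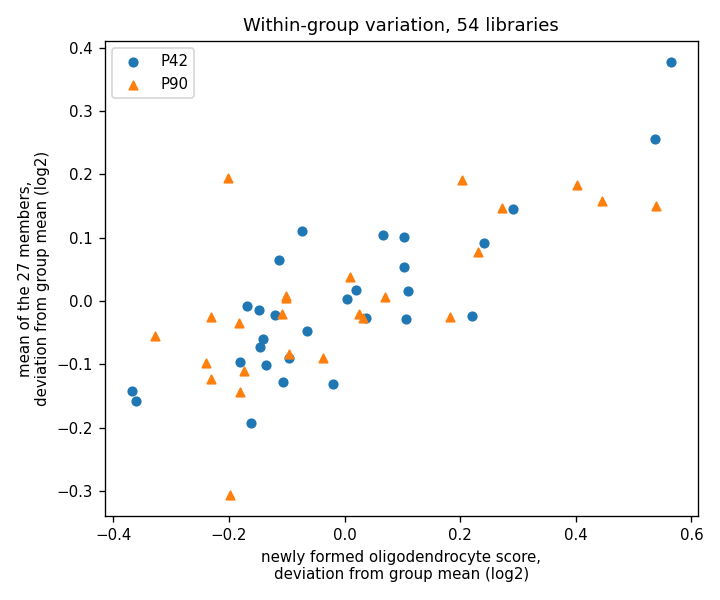
Mean of the 27 genes against the newly formed oligodendrocyte marker score in 54 libraries, both as log2 deviation from the group mean (circles P42, triangles P90). The points rise together, with r = 0.765.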

How the data were processed

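Bulk RNA of the nucleus accumbens was analysed from 1 table of raw read counts per gene in 54 libraries, deposited by the authors. Per the submitters' processing notes, fastp and HISAT2 2.0.5 were used; no source used here names the counter, its annotation or the build. Gene positions and promoters are those of GRCr8, on which all 27 members have the table's start and end. Per the labels' protocols, libraries were not strand-specific and RNA integrity numbers exceeded 6.3 except 1 of 5.8. The 54 columns of FPKM were not used. The 720 genes without a name took at most 0.412% of counts and were left out.

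Groups came from titles, and replicate numbers only name libraries. The labels give 1 batch date and no litter, and do not say that libraries are separate animals, so p-values measure the spread between libraries. Counts were tested with edgeR 4.0.16 (TMM, default low-count filter by group, quasi-likelihood F test, two-sided, Benjamini-Hochberg over all genes, threshold 0.05) in 3 fits of 4 group means, with 30 control, 29 P42 and 25 P90 libraries. The fit was run first with the robust empirical Bayes option and, after its calls had been seen, with the default, which is reported; the robust result is among the alternatives. The rule for libraries against their sex label was likewise changed after its first result had been seen. CPM values use TMM over all libraries. The test was checked on counts simulated for the age effect in control males. It recovered 47 of 100 genes changed by 0.5 on the log2 scale and 88 of 100 changed by 1. Among the 23597 genes tested it called 7 unchanged genes. Each gene was drawn on its own, so shared differences in tissue content and libraries against their sex label were not simulated. The check does not show how the test behaves with them. The ethanol comparisons, with other group sizes, were not simulated. Members, lists and the naming rule were chosen with earlier results of these data known. Named are members past the threshold, or else the 3 with the smallest p, up to 4 genes of each other list, and the 10 genes most alike. A few genes that this rule names are not reported here. Alternatives were RLE size factors, no filter, DESeq2 1.42.0, voom of limma 3.58.1, all libraries in 1 fit, marker scores as covariates, and leaving out libraries.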

Additional observations from a re-analysis of the deposited data

Results flagged for a closer look

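For 10 of the genes and the mean of all 27 members, 88 groups of 4 to 9 libraries were examined for a single library far from the others. Of these, 6 were marked, and chance marks about 1 in 20. In P42 PAE_VEH males, library 6 held the highest Hmgcs1 (542 CPM, others 270.1 to 371.5), Cyp51 (288 CPM, others 167 to 213) and Insig1 (122 CPM, others 58.85 to 88.85). The same library stood apart in its whole profile. Its cortical excitatory neuron marker score was the highest of its group (3.51, group median -1.08). Its ependymal marker score was the lowest (-3.37, group median -0.075). Scap was highest in library 5 of that group, at 213 CPM (others 162.5 to 186), a library whose Kdm5d went against its title. In P90 PAE_AAE females, library 3 held the highest Lss (61.7 CPM, others 48.5 to 50.3) and Srebf2 (244 CPM, others 186 to 193). This library also had the highest cortical excitatory neuron score of its group (2.65, group median -0.495) and the lowest ependymal score (-1.26, group median -0.085). The part of tissue content in these marks was not tested.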

How the results depend on the processing

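No paired analysis was possible because the labels give no replicate numbers shared between groups. The number of members past the threshold moved by more than 1.5 times in these cases. In females, against 5, it was 8 with DESeq2, 10 with the marker scores as covariates and 1 without the 3 libraries whose Kdm5d went against the title. Under the first rule tried for such libraries, added after seeing the data, it was 2 in females and 3 in males, against 7. Leaving out 1 library at a time gave 4 to 7 members in males, 3 to 7 in females and 10 to 12 over both sexes. The cause was not tested. The robust setting, also added after seeing the data, gave 7, 5 and 11. No ethanol or sex comparison gave a member past the threshold in edgeR, DESeq2, voom or any other setting run. Over all genes, calls in females rose to 349 with DESeq2 and 3800 with the marker scores, and calls in males rose from 610 to 1166 with DESeq2 and fell to 322 and 69 without the libraries of the 2 sex-marker rules. Mvk between the sexes at P90 turned from -0.16 to 0.014 with the marker scores as covariates. The members' median in that comparison turned from -0.035 (18 lower) to 0.092 (6 lower). For the difference of the P90 ethanol effect between the sexes, the same scores turned the median from 0.080 to -0.061. The lowest count of a member in a library was 310 reads.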
